A study of Mus musculus with 12 samples.

Results

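Red blood cell RNA in mouse carotid arteries was followed through 4 genes: Hba-a1 (adult alpha-globin), Hbb-bt (an adult beta-globin), Slc4a1 (band 3) and Alas2 (the erythroid form of the first haem synthesis enzyme). Every probe that the platform annotation gives to 1 of these symbols was taken, which gave 7 of the 45281 probes and 4 of the 19057 genes with a probe of their own: 1 probe for Hba-a1, 4 for Hbb-bt, 1 for Slc4a1 and 1 for Alas2. The arteries came from mice labelled fibulin-5 knockout (FibVKO, here KO) and wild type (WT), all labelled C57Bl/6J. In all mice the left common carotid (LCA) had been partially ligated, while the right one (RCA) of the operated animals was not touched. Arteries were removed 1 day later and total RNA was hybridised to one-colour Illumina arrays. The groups were KO LCA, KO RCA, WT LCA and WT RCA, with 3 arrays each. Its question was what the lack of fibulin-5, an elastic fibre protein, does to arterial stiffening and atherosclerosis under disturbed flow. The labels do not give the knockout allele, the sex or age of the mice, whether arteries were pooled, or whether blood was flushed from the vessels. Nor do they say whether replicate arrays stem from different mice, so the p-values rest on a spread between samples that may be technical.

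Red blood cells lose their nucleus before they mature, and young red cells (reticulocytes) still carry globin messenger RNA. An adult haemoglobin molecule joins alpha chains with beta chains around haem, so both chains are made together in erythroid precursors. Band 3 exchanges chloride and bicarbonate across the red cell membrane and anchors the membrane skeleton, and Alas2 starts haem synthesis in erythroid cells. Globin RNA in a vessel sample is commonly read as a gauge of the blood taken along with it, although alpha-globin has also been described in endothelial cells of small arteries in mice.

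The promoters of the globins and Alas2 are shown because they carry the short motifs of the erythroid factors GATA1 (GATAA, or TTATC on the other strand) and KLF1 (CACCC, or GGGTG on the other strand), which are marked by capitals. Promoters of 3 of the 4 genes were in the RefSeq table used here, on build GRCm38.p6. Each sequence is the 250 bases before the gene's start, 5′ to 3′ along the gene's own strand.
Hba-a1, chr11:32283422-32283671, plus strand: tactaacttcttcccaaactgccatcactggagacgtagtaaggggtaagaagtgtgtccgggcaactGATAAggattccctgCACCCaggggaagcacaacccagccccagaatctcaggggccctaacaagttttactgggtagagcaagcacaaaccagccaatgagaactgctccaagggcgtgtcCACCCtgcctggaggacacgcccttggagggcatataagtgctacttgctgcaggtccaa
Hbb-bt, chr7:103813924-103814173, minus strand: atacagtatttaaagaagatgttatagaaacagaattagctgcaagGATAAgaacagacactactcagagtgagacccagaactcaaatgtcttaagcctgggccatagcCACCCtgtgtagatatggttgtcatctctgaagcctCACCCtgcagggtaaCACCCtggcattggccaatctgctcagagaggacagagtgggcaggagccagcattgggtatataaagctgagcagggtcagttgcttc
Alas2, chrX:150547167-150547416, plus strand: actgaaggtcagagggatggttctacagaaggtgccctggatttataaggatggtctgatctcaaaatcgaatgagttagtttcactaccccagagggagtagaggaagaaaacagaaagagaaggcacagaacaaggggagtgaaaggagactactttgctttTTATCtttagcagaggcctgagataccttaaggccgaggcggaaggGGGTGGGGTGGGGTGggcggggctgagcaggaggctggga
Hba-a1 held 1 GATAA, at 182 to 178 bases before the start, and 2 CACCC, the nearer one at 60 to 56 bases. Hbb-bt held 1 GATAA, at 204 to 200 bases, and 3 CACCC, at 140 to 136, 104 to 100 and 89 to 85 bases. Alas2 held both motifs on the opposite strand only, with 1 TTATC at 86 to 82 bases and 3 adjoining GGGTG copies between 40 and 26 bases before the start. Among 32851 promoters of the same length, searched on both strands, 22.6% held GATAA, 52.0% held CACCC and 10.1% held both. The matches describe these windows and do not show that a factor binds there.

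The deposited values are linear intensities in arbitrary units that keep a floor: the lowest value was 72.4 and the median over all values 93.6. The background level of an array was taken as the 95th percentile of its 1504 olfactory and vomeronasal receptor probes, which lay between 95.7 and 126 (WT LCA replicate 3 was the highest). A pair of arrays stood apart from the rest: the median correlation with the other arrays was 0.68 for WT LCA replicate 3 and 0.76 for WT RCA replicate 3, against 0.78 to 0.86 for the others. Fbln5, the deleted gene, had 1 probe at 80.6 to 97.4, above background on 0 of 12 arrays, so that it could not check the genotype labels. The endothelial and smooth muscle lists were above background on at least 3 arrays for 9 of 10 and 8 of 10 genes. Pecam1, of endothelial cells, averaged 1084 to 1793 over the groups, while Kdr, of the same list, was above background on 1 of 12 arrays. Of the smooth muscle list, Tpm1 was above background on 12 of 12 arrays, Acta2, Tpm2 and Mylk on 11, Cald1 on 10 and Smtn on 8. Acta2 averaged 188 to 999 over the groups. The contractile markers Tagln, Myh11, Cnn1 and Lmod1 were above background on 5, 7, 1 and 1 of 12 arrays, with group means of 88.4 to 110.0. Hba-a1 and the 4 Hbb-bt probes were above background on 12 of 12 arrays, although the dimmest Hbb-bt probe came close to it on several (115 on WT RCA replicate 1, where the level was 99.8). Band 3 was above it on 3 arrays and Alas2 on 6.

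Alpha-globin was the member whose level set the KO RCA apart. Hba-a1 (probe ILMN_1212702) had intensities of 1362, 1244 and 1830 on the KO RCA arrays, against 185, 636 and 365 on the WT RCA arrays. Every KO RCA array lay above every WT RCA array.
In the ligated artery the intensities were 535, 794 and 636 on the KO LCA arrays, against 562, 359 and 526 on the WT LCA arrays. Those ranges overlapped. The group means were 655 ± 130.2 in KO LCA, 1479 ± 309.9 in KO RCA, 482 ± 108 in WT LCA and 395 ± 228 in WT RCA (SD, n = 3 each). In order of level, KO RCA stood above KO LCA without overlap, while the neighbours KO LCA and WT LCA, and WT LCA and WT RCA, overlapped. The widest high-to-low ratio within a group was in WT RCA, where replicate 1 gave the lowest value of the 12 arrays. Because RNA of all cells in a sample was measured together, more red cells, more globin RNA per red cell and globin RNA of other cells cannot be told apart.

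**Figure D1:**
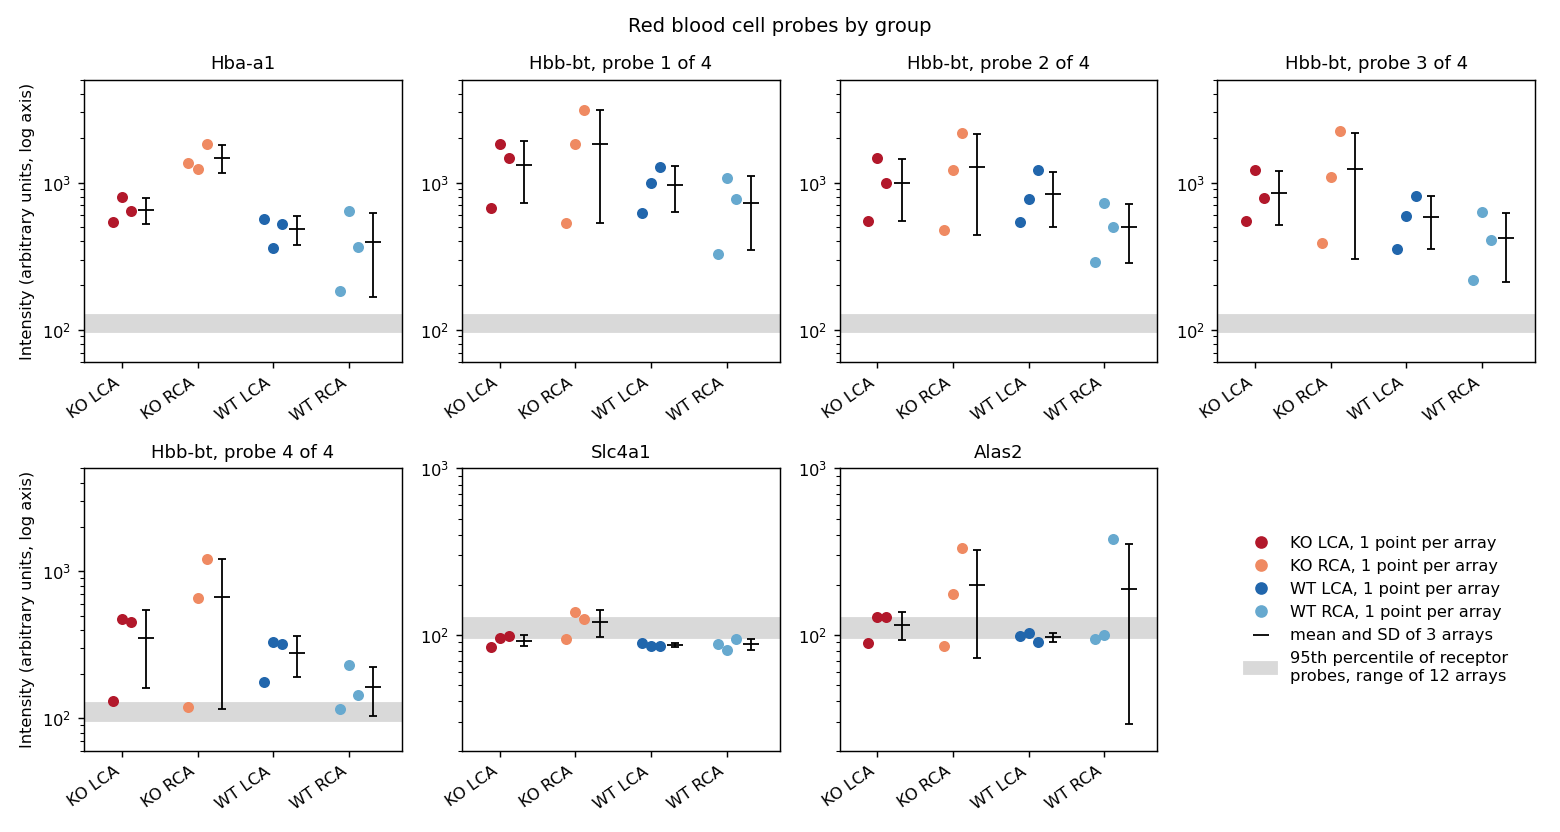
Intensity (arbitrary units, log axis) of the 7 red blood cell probes by group; each point is 1 array, the bar is the mean and SD of 3 arrays, and the grey band is the range over 12 arrays of the background level. Hba-a1 lay at 1244 to 1830 in KO RCA, above the other 3 groups, while Slc4a1 and most Alas2 values lay in or near the grey band.

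Beta-globin varied over a range as wide as alpha-globin, but its KO RCA arrays were split. The brightest of the 4 Hbb-bt probes (ILMN_1236718) had intensities of 528, 1830 and 3101 on the KO RCA arrays, against 328, 1076 and 772 on the WT RCA arrays. KO RCA replicates 2 and 3 lay above all WT RCA arrays, and KO RCA replicate 1 lay among them.
On the ligated side the values were 668, 1830 and 1480 on the KO LCA arrays, against 622, 989 and 1286 on the WT LCA arrays. Replicate 1 was the low array in both of these groups, and the groups overlapped. Group means were 1326 ± 596 in KO LCA, 1820 ± 1286 in KO RCA, 966 ± 332 in WT LCA and 726 ± 376 in WT RCA (SD, n = 3 each), so that every pair of neighbours in this order overlapped.
The other 3 Hbb-bt probes followed the same arrays. Probe ILMN_1216452 read 474, 1215 and 2163 in KO RCA, against 287, 721 and 497 in WT RCA. Probe ILMN_1239117 read 387, 1086 and 2226 in KO RCA, against 216, 630 and 408 in WT RCA. Probe ILMN_1235372, the dimmest, read 119, 656 and 1215 in KO RCA, against 115, 230 and 144 in WT RCA. At each of the 4 probes the highest array was KO RCA replicate 3 and the lowest was WT RCA replicate 1, with a ratio of 7.54 to 10.5 between them, and Hba-a1 had the same highest and lowest arrays with a ratio of 9.92. The Hbb-bt, Hbb-bs and Hbb-b2 genes are close copies, as are Hba-a1 and Hba-a2, so each probe may also have bound RNA of the copies of its gene.

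Band 3 was close to background almost everywhere. Slc4a1 (probe ILMN_1227675) read 94.8, 138 and 124 on the KO RCA arrays, against 87.6, 81.4 and 94.2 on the WT RCA arrays. KO RCA replicates 2 and 3 were above background, and no WT RCA array was. In the ligated artery it read 84.3, 95.2 and 97.7 on the KO LCA arrays, against 89.6, 85.2 and 86.1 on the WT LCA arrays, where only KO LCA replicate 3 exceeded its array's background level.

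Alas2 (probe ILMN_2675874) was carried by a few arrays. It read 85.7, 176 and 333 on the KO RCA arrays, against 94.0, 99.8 and 374 on the WT RCA arrays. The highest value of all was that of WT RCA replicate 3, an array that ranked only 10th of 12 for Hba-a1 and 8th for the brightest Hbb-bt probe. KO RCA replicate 1, which ranked 2nd for Hba-a1, had the lowest Alas2 value of the 12 arrays. The ligated arteries read 89.5, 128 and 127 in KO LCA, against 98.1, 102 and 90.0 in WT LCA. Only KO LCA replicates 2 and 3 were above background among these.

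The largest globin differences between groups were those of KO RCA against WT RCA. Differences are on the log2 scale (a value of 1 is a doubling), are given with the standard error of the limma fit over 32606 probes, and were called at a Benjamini-Hochberg adjusted p under 0.05 over all of them. Hba-a1 was higher by 2.06 ± 0.39 in KO RCA, a ratio of geometric means of 4.17 (95% interval 2.29 to 7.60), with an unadjusted p of 0.000372 and an adjusted p of 0.446 in limma. It ranked 27th of the 32606 probes by p and did not pass. The 4 Hbb-bt probes were higher by 1.15 to 1.55, with unadjusted p of 0.058 to 0.12 and an adjusted p of 1.00 at each in limma. For the brightest of them the 95% interval ran from -0.37 to 2.67. Slc4a1 was at least 1.16-fold higher in KO RCA, a bound against the background level of the WT RCA arrays, with an unadjusted p of 0.0068 and an adjusted p of 1.00 in limma. Alas2 differed by 0.17 ± 0.57. All 7 probes were higher in KO RCA, with a median of 1.20 against -0.0018 over all probes tested.
No member passed the adjusted threshold, as no probe did in this comparison (percent of probes called: 0). At an unadjusted p under 0.05 in limma, 2 of 7 member probes were higher, Hba-a1 and Slc4a1, against 2.3% of all probes higher and 1.9% lower. The same 2 were the members whose groups did not overlap, against 6.02% of all probes that were higher without overlap. For Slc4a1 the groups were separated only by 94.85 on KO RCA replicate 1 against 94.16 on WT RCA replicate 3, neither above background. The members are not independent of each other, since 4 of the 7 probes share a gene.

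Single arrays moved the beta-globin difference by over 1.5 times. Without KO RCA replicate 1, the brightest Hbb-bt probe differed by 1.88 (unadjusted p of 0.011, adjusted p of 1.00 in limma). The value was 0.60 when KO RCA replicate 3 was left out. Leaving out WT RCA replicate 1 gave 0.66. For Hba-a1, leaving out any 1 of the 6 arrays gave 1.60 to 2.49, with adjusted p of 0.0998 to 1.00 in limma, so that the direction held in each case and the threshold was passed in none. Without the 2 arrays of lowest likeness, Hba-a1 differed by 2.09 and the brightest Hbb-bt probe by 1.28. Alas2 differed by 0.82 when WT RCA replicate 3 was left out and by -0.31 when KO RCA replicate 3 was.

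In the ligated artery the globins of KO and WT mice were closer together. For KO LCA against WT LCA, Hba-a1 differed by 0.45 ± 0.39 (95% interval -0.42 to 1.32) and the Hbb-bt probes by 0.19 to 0.55, with standard errors of 0.59 to 0.80. Leaving out 1 array moved the brightest Hbb-bt probe to between 0.10 (without KO LCA replicate 2) and 0.83 (without KO LCA replicate 1). It stood at 0.11 without WT LCA replicate 1, at 0.26 without KO LCA replicate 3 and at 0.64 without WT LCA replicate 3. Slc4a1 had 1 array above background in KO LCA and 0 in WT LCA, and its measured means were 92.4 ± 7.15 and 87.0 ± 2.32 (SD, n = 3 each). Alas2 was at least 1.05-fold higher in KO LCA, where 2 of 3 arrays were above background. All 7 probes had a higher mean log2 value in KO LCA, with a median difference of 0.23 against -0.0042 over all probes. None passed the adjusted threshold, against 0.0368% of all probes (12 probes), and 0 of 7 had an unadjusted p under 0.05 in limma, against 4.4% of all probes higher and 1.91% lower. The adjusted p of the members lay between 0.81 and 0.98 in limma.

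**Figure D2:**
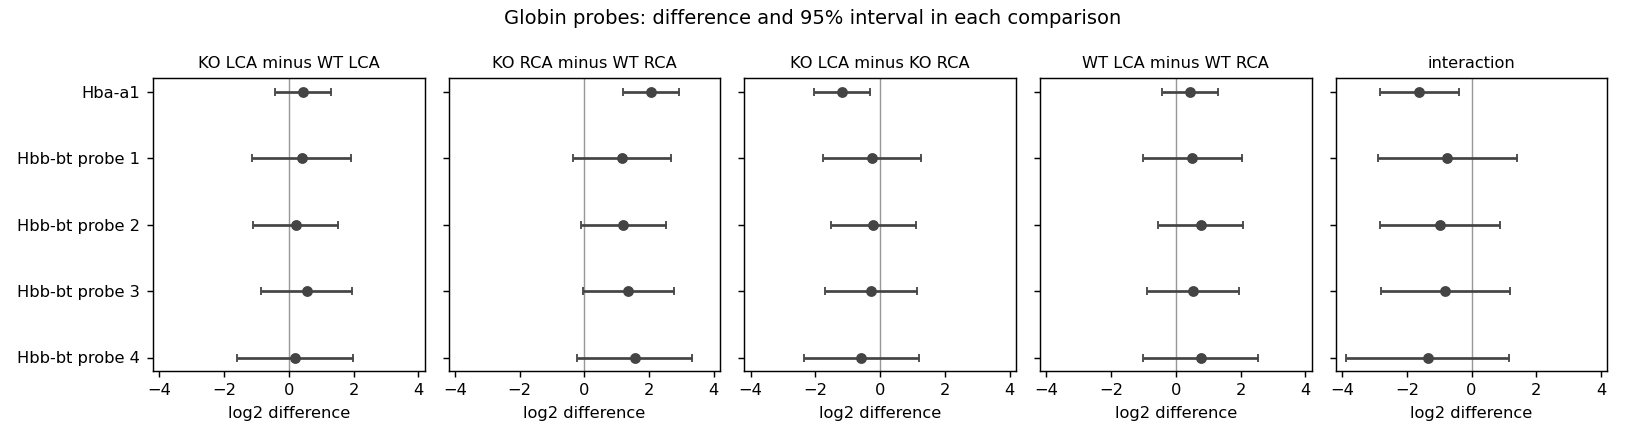
Log2 difference with its 95% interval from limma for Hba-a1 and the 4 Hbb-bt probes (probe 1 the brightest) in each comparison, with a panel per comparison and a line at 0. For KO RCA minus WT RCA the Hba-a1 interval ran from 1.19 to 2.93 while those of the Hbb-bt probes reached below 0, and none of the probes passed the adjusted threshold.

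Ligation went with opposite signs of the alpha-globin difference in the KO and WT lines, although neither passed the threshold. Hba-a1 was lower by 1.17 ± 0.39 in KO LCA than in KO RCA (95% interval -2.04 to -0.31, unadjusted p of 0.013, adjusted p of 0.632 in limma), and the 3 KO LCA arrays lay below the 3 KO RCA arrays. In WT mice it differed by 0.44 ± 0.39 between LCA and RCA (95% interval -0.43 to 1.30), with overlapping groups. Without WT RCA replicate 1 this difference was -0.025, and without WT RCA replicate 2 it was 0.87. The interaction, the KO ligation difference minus the WT one, was -1.61 ± 0.55 for Hba-a1 (unadjusted p of 0.015, adjusted p of 0.921 in limma).
The Hbb-bt probes differed by -0.59 to -0.22 between KO LCA and KO RCA and by 0.51 to 0.77 between WT LCA and WT RCA, and their interactions lay between -1.35 and -0.76, with standard errors of 0.83 to 1.13. For the brightest Hbb-bt probe, leaving out KO LCA replicate 1 or KO RCA replicate 3 turned the KO ligation difference to 0.19 or 0.31, and leaving out KO RCA replicate 1 gave -0.97. Its WT ligation difference was 0.021 with WT RCA replicate 1 left out, 0.27 with WT LCA replicate 3 left out, and 0.80 and 0.88 with WT LCA replicate 1 and WT RCA replicate 2 left out.
Slc4a1 was lower by 0.35 ± 0.12 in KO LCA than in KO RCA (unadjusted p of 0.019, adjusted p of 0.633 in limma), at means of 92.4 ± 7.15 and 119 ± 21.8 (SD, n = 3 each), with 1 and 2 arrays above background. With background subtracted that difference was -0.92, and with KO RCA replicate 2 left out it was -0.23 (unadjusted p of 0.079 in limma). Alas2 differed by -0.59 ± 0.57 there. Between WT LCA and WT RCA it differed by -0.66 ± 0.57 (95% interval -1.92 to 0.61), with overlapping groups, and 1 WT RCA array held most of the signal. The Alas2 geometric mean of WT RCA was 1.40-fold the background level of the WT LCA arrays. With KO RCA replicate 3 left out the KO difference was -0.11. With WT RCA replicate 3 left out the fitted WT difference was -0.0050, so the WT difference rests on that array.
Across the members, 7 of 7 probes were lower in KO LCA than in KO RCA, of which 2 had an unadjusted p under 0.05 in limma (against 3.9% of all probes lower and 3.71% higher) and 1 had groups without overlap (against 10.2%). Between WT LCA and WT RCA 5 probes were higher and 2 lower, with 0 of 7 under that p, against 2.71% of all probes higher and 4.07% lower. In the interaction 1 of 7 was under it, Hba-a1, against 1.33% of all probes lower and 2.28% higher. No probe of any gene passed the adjusted threshold in the KO ligation, WT ligation or interaction comparison in limma (0% of all probes in each).

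The comparisons share groups, so the member values are set side by side per array instead. Each probe's log2 intensity was taken as its deviation from that probe's mean over the 12 arrays. KO RCA replicate 3 stood at 1.54 for Hba-a1 and 1.61 for the brightest Hbb-bt probe, and WT RCA replicate 1 at -1.77 and -1.63, so alpha-globin and beta-globin were together at both ends of the range. KO RCA replicate 1 was the exception, at 1.12 for Hba-a1 and -0.94 for Hbb-bt. Its Hba-a1 deviation exceeded its Hbb-bt deviation by 2.05, while the gap on the other 11 arrays lay between -0.77 and 0.54. On that array all 11 adult beta-globin probes (4 of Hbb-bt, 6 of Hbb-bs and 1 of Hbb-b2) were below their own means. By group, the gap averaged -0.23 ± 0.52 in KO LCA, 0.71 ± 1.17 in KO RCA, -0.28 ± 0.72 in WT LCA and -0.20 ± 0.17 in WT RCA (SD, n = 3 each). Exact two-sided permutation tests of the gap gave p = 0.2 for KO RCA against WT RCA and p = 0.3 to 0.9 for the other 3 comparisons of groups, where 3 against 3 arrays cannot go below 0.1. Adjusted over the 4 comparisons these exact p-values were 0.6 to 0.9.

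**Figure D3:**
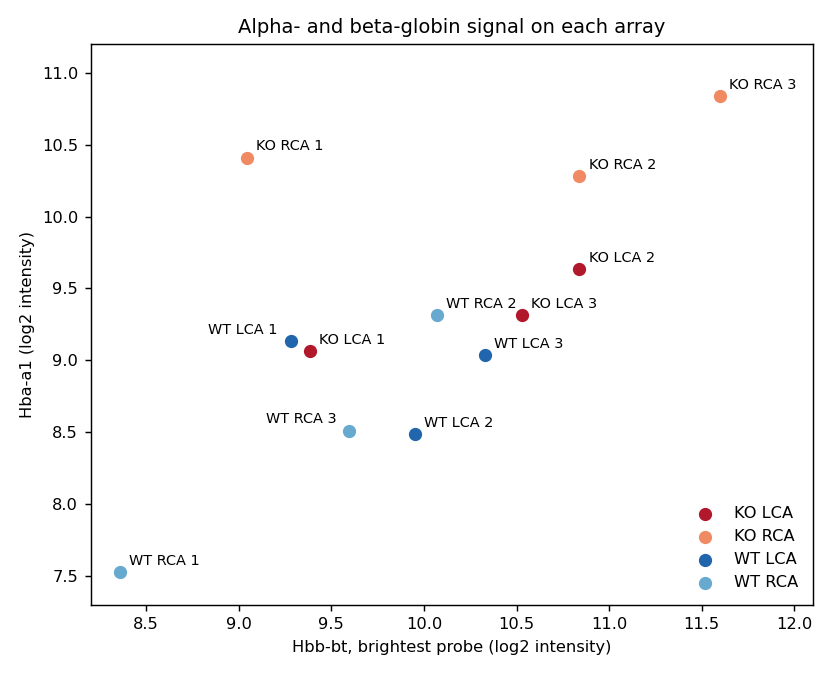
Hba-a1 (log2 intensity) against the brightest Hbb-bt probe (log2 intensity), 1 labelled point per array, coloured by group. KO RCA 1 lies above the other arrays at its Hbb-bt level, by a gap of 2.05 between its 2 deviations, and KO RCA 3 and WT RCA 1 mark the high and low ends of both genes.

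**Figure D4:**
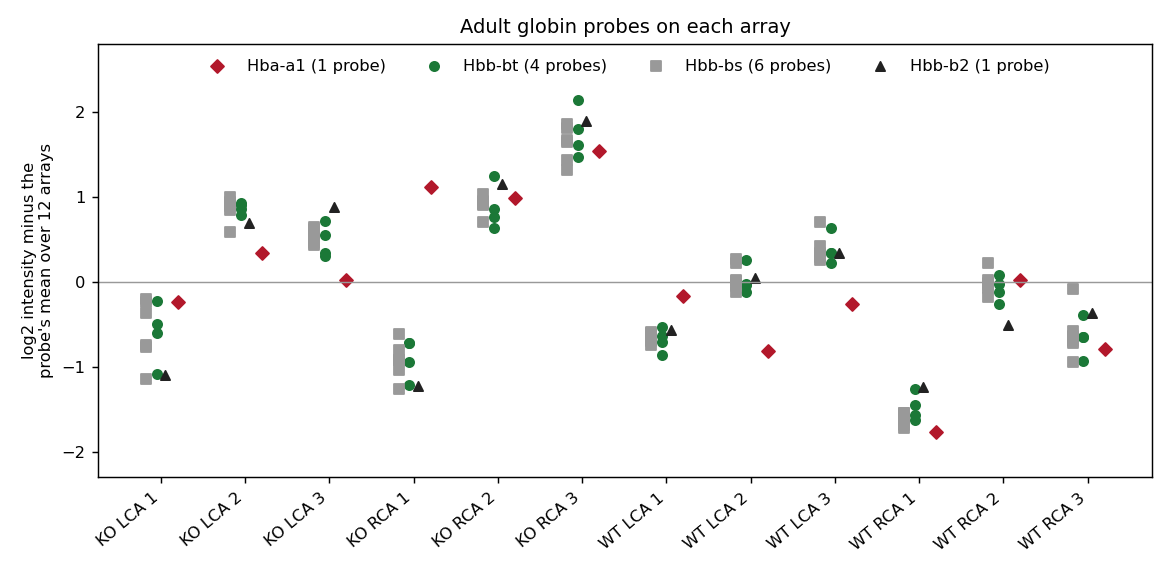
Deviation of each adult globin probe from its own mean over 12 arrays (log2 intensity), by array: Hba-a1 with 1 probe, Hbb-bt with 4, Hbb-bs with 6 and Hbb-b2 with 1. On KO RCA 1 the 11 beta-globin probes lie below 0 while Hba-a1 lies at 1.12.

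The beta-globin probes agreed more closely with each other than with the Hba-a1 probe. Over the 12 arrays, which share the authors' normalization, the 4 Hbb-bt probes correlated with each other at r of 0.93 to 0.98, and the 11 adult beta-globin probes at 0.89 to 1.00 (median 0.96). Hba-a1 correlated with the 11 beta-globin probes at 0.55 to 0.71. As deviations from the group means these ranges were 0.86 to 1.00 among the beta-globin probes and 0.36 to 0.65 for Hba-a1 with them.
The other beta-globin genes gave the same signs as Hbb-bt. Their 7 probes were higher by 1.18 to 1.36 in KO RCA than in WT RCA, higher by 0.095 to 0.55 in KO LCA than in WT LCA, lower in KO LCA than in KO RCA (-0.53 to -0.063), and higher by 0.55 to 0.80 in WT LCA than in WT RCA. At an unadjusted p under 0.05 in limma, 0 of these 7 probes passed in any comparison. Hbb-bs, the brightest of them, averaged 1424 ± 641 in KO LCA, 2331 ± 1813 in KO RCA, 1176 ± 352 in WT LCA and 832 ± 408 in WT RCA (SD, n = 3 each).
The embryonic globins Hba-x, Hbb-bh1 and Hbb-y had 5 probes at 77.8 to 116, above background in 4 of 60 values.

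Pairs of members were compared over the 12 arrays with their brightest probes, 6 pairs in all, and none passed after adjustment. Hba-a1 and Hbb-bt correlated at r = 0.65 (permutation p = 0.021, adjusted over the pairs 0.062) and Spearman's ρ = 0.54 (permutation p = 0.074, adjusted 0.10). Without the 2 arrays farthest from the median, KO RCA replicate 3 and WT RCA replicate 1, r was 0.16, so the relation rested on those arrays. Within groups, as deviations from the group means, r was 0.59.
Hba-a1 and Slc4a1 correlated at r = 0.67 (permutation p = 0.019, adjusted 0.062) and Spearman's ρ = 0.63 (permutation p = 0.031, adjusted 0.092). That relation kept r = 0.60 without the same 2 arrays and was at -0.025 as deviations from the group means, so it did not hold within groups.
Hbb-bt correlated with Slc4a1 at r = 0.61 and Spearman's ρ = 0.52, and with Alas2 at r = 0.50 and Spearman's ρ = 0.66, where the adjusted permutation p-values were 0.069 and 0.12 for r and 0.10 and 0.092 for Spearman's ρ. Without the 2 farthest arrays these r were 0.47 and 0.19, and as deviations from the group means 0.58 and 0.62. Slc4a1 and Alas2 gave r = 0.61 and Spearman's ρ = 0.56, with adjusted permutation p of 0.084 and 0.10, r = 0.44 without KO RCA replicates 2 and 3 and 0.67 within groups. Hba-a1 and Alas2 gave r = 0.28 and Spearman's ρ = 0.20, with adjusted permutation p of 0.375 and 0.54, and r = -0.22 without the 2 farthest arrays. Most Slc4a1 and Alas2 values lay at background, which limits what their correlations can show.

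The genes most like Hba-a1 over the 12 arrays, among those compared, were not globins. Hbb-bt was left out as a member, and Hba-a2 had no probe of its own. Hbb-bs and Hbb-b2 were thus the only adult haemoglobin genes that could appear. The comparison took in 9051 genes above background on at least 3 arrays. It left out the members, predicted genes, RIKEN clones, olfactory and vomeronasal receptor genes and unnamed loci. The 8 genes with the highest r were Sem1, a proteasome subunit (0.86), Rtn4, a reticulon of the endoplasmic reticulum (0.85), the small GTPase Rhob (0.82), Spcs3, of the signal peptidase complex (0.81), Kalrn, a guanine nucleotide exchange factor (0.80), Abat, which breaks down GABA (0.79), the intermediate filament gene Nes (0.79) and the adhesion molecule Icam1 (0.79). Their r with the brightest Hbb-bt probe was 0.31 to 0.73. As deviations from the group means, r with Hba-a1 lay between 0.14 for Icam1 and 0.80 for Rtn4. Hbb-bs ranked 295th and Hbb-b2 371st by likeness to Hba-a1, at r of 0.57 and 0.55. By likeness to the brightest Hbb-bt probe they ranked 1st and 2nd, at r of 0.98 and 0.95, and the next gene, Srp19, stood at 0.80 (named after its values were seen). These r describe 12 arrays that share group differences.

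Other genes of the red cell were mostly too dim to follow. Of 40 further red cell genes, 32 had a probe, 10 were above background on at least 3 arrays, and 3 on 12 of 12: Hbb-bs, Hbb-b2 and Cd59a, which encodes a complement inhibitor of many cell types. The membrane genes Epb42, Rhag and Kel averaged 88.3 to 97.3 in every group, as did Hemgn at 89.6 to 93.4. Among the 27 tested, 20 were higher in KO RCA than in WT RCA with a median of 0.042, against -0.0018 over all probes, and 1 higher, the embryonic globin Hbb-y at a mean of 101 in KO RCA against 91.8 in WT RCA, and 0 lower had an unadjusted p under 0.05 in limma, against 2.3% and 1.9% of all probes. The corresponding counts for KO LCA against WT LCA were 12 higher of 27, a median of -0.0080, and 0 higher and 1 lower, Blvrb, a biliverdin reductase, against 4.4% and 1.91% of all probes. Slc25a37 (mitoferrin 1, which brings iron into mitochondria for haem) read 101, 192 and 112 in KO RCA, against 99.5, 100.3 and 107 in WT RCA, so that only KO RCA replicate 2 stood out.
Haem synthesis beyond Alas2 gave no common direction, with 5 of 10 genes higher in KO RCA than in WT RCA and 3 of 10 higher in KO LCA than in WT LCA, and 0 passed the adjusted threshold in limma. Slc25a38, the mitochondrial glycine carrier that feeds Alas2, read 184, 1842 and 166 in KO RCA, against 151, 154 and 128 in WT RCA, again with replicate 2 alone far above the rest. Ppox, a later enzyme of the pathway, was lower by 0.22 ± 0.07 in KO RCA (unadjusted p of 0.0087, adjusted p of 1.00 in limma).
The erythroid factors Gata1 and Klf1, which drive globin transcription in precursors, averaged 87.1 to 90.7 and 86.2 to 98.4 over the groups. Lmo2, a partner of Gata1 that endothelial cells also express, read 414, 374 and 434 in KO RCA, against 584, 1255 and 609 in WT RCA. It read 886, 474 and 369 in KO LCA, against 1298, 1748 and 1202 in WT LCA. KO and WT did not overlap in either artery, but the share of all probes lower without overlap was not computed for these pairs. The share of all probes that were higher without overlap in KO RCA than in WT RCA was 6.02%. Its differences of -0.91 ± 0.35 and -1.38 ± 0.35 had adjusted p of 1.00 and 0.399 in limma, and were opposite in sign to those of Hba-a1.

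Cd163 and Hp, which act in the uptake of free haemoglobin, had their highest group means in KO LCA. Cd163, the macrophage receptor for haemoglobin bound to haptoglobin, read 138, 141 and 165 in KO LCA, against 97.5, 86.6 and 81.8 in WT LCA. All KO LCA arrays were above background and no WT LCA array was, which gave at least a 1.36-fold higher level (unadjusted p of 5.13e-05, adjusted p of 0.0644 in limma). Against KO RCA, which read 79.7, 94.8 and 91.0, KO LCA was at least 1.46-fold higher (adjusted p of 0.632 in limma). Hp, haptoglobin itself, read 185, 114 and 106 in KO LCA, against 98.2, 94.6 and 86.9 in WT LCA, and was at least 1.20-fold higher (adjusted p of 0.663 in limma). Cp, ceruloplasmin, which oxidises iron for transport, was lower by 0.65 ± 0.22 in KO LCA (adjusted p of 0.612 in limma). Of the 14 genes of this list, 2 were higher (Cd163 and Hp) and 3 lower (Cp, the haem transporter Slc48a1 and the iron exporter Slc40a1) at an unadjusted p under 0.05 in limma for KO LCA against WT LCA (4.4% and 1.91% of all probes), and 0 in either direction for KO RCA against WT RCA (2.3% and 1.9% of all probes). Hmox1, which breaks down haem, averaged 108 ± 13.0 in KO LCA, 92.8 ± 5.61 in KO RCA, 95.2 ± 2.39 in WT LCA and 97.2 ± 2.41 in WT RCA (SD, n = 3 each).

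Markers of the other blood cells and of the vessel wall are given for the same arrays, since both could move with the globins. Summed over the probes of a list, platelet genes lay at 1614 to 1862 in KO RCA, against 1624 to 1742 in WT RCA, and neutrophil genes at 1319 to 1915 in KO RCA, against 1325 to 1521 in WT RCA. Lymphocyte genes lay at 810 to 832 in KO RCA, against 853 to 866 in WT RCA, and were above background on 12 of 12 arrays for 0 of 9 genes. In the ligated artery lymphocyte genes lay at 822 to 839 in KO LCA, against 880 to 891 in WT LCA, so that KO was below WT without overlap in both arteries. Only 3 of these 9 genes were above background on at least 3 arrays, so the sums were mostly background signal. How often sums of other probes separate in this way was not computed. The lymphocyte markers Cd3e, Cd3g and Cd79b were at background on 12 of 12 arrays, while Cd3d was above it on 4 and Cd8a on 9, with Cd8a at group means of 102 to 137. Of 13 platelet genes, 6 were above background on at least 3 arrays. Gp9 and Vwf (which endothelial cells also make) were above it on 12 of 12, Nrgn on 8, Tubb1 on 7, Clec1b on 6 and Pf4 on 4, and Itga2b, Gp5 and Gp6 on 0. Neutrophil genes summed to 1394 to 1530 in KO LCA, against 1353 to 2401 in WT LCA. Ppbp, a platelet chemokine, was above background on 1 array only, KO RCA replicate 3 at 285, which was also the highest array for Hba-a1 and Hbb-bt. S100a9, of neutrophils, was highest on WT LCA replicate 1 at 709, an array low in Hbb-bt.
For KO LCA against WT LCA, Pf4, another platelet chemokine, read 178, 95.7 and 190.2, against 96.1, 102 and 106. KO LCA replicate 2 lay below every WT LCA array, so the groups overlapped. The fitted Pf4 difference was 0.55 ± 0.21 (adjusted p of 0.712 in limma). Its KO LCA geometric mean was 1.36-fold the background level of the WT LCA arrays, with 2 KO LCA arrays above background. In the same pair of groups the summed platelet genes lay at 1612 to 1993 in KO LCA, against 1571 to 1849 in WT LCA.
Of the wall lists, endothelial genes summed to 2516 to 3157 in KO RCA, against 2724 to 3424 in WT RCA, and overlapped. Smooth muscle genes summed to 1844 to 2731 in KO RCA, against 1253 to 1463 in WT RCA. In the ligated artery they summed to 3036 to 4242 in KO LCA, against 978 to 1919 in WT LCA. KO and WT did not overlap in either artery, but how often other sums separate in this way was not computed. A few bright genes carried much of these sums, with Acta2, Tpm1 and Cald1 at means of 999, 777 and 576 in KO LCA. Of the 9 tested genes, 7 were higher in KO LCA than in WT LCA and 8 in KO RCA than in WT RCA. Fibroblast genes summed to 1582 to 2271 in KO LCA, against 1051 to 1466 in WT LCA, and to 1369 to 1661 in KO RCA, against 1303 to 2164 in WT RCA. Adipocyte genes, from fat around the vessel, summed to 1203 to 1536 in KO LCA, against 864 to 1038 in WT LCA, and to 857 to 1059 in KO RCA, against 886 to 1075 in WT RCA. Monocyte and macrophage genes summed to 867 to 1247 in KO LCA, against 1101 to 1434 in WT LCA, and to 1064 to 1120 in KO RCA, against 1007 to 1473 in WT RCA. Only 3 of 9 adipocyte, 3 of 8 monocyte and macrophage and 5 of 14 neutrophil genes were above background on at least 3 arrays. The sums of these lists therefore also held much background signal. Endothelial genes summed to 2133 to 4889 in KO LCA, against 2183 to 3078 in WT LCA. Tpm1, a tropomyosin of the contractile apparatus, was higher by 1.99 ± 0.25 in KO LCA than in WT LCA, with an adjusted p of 0.0476 in limma, and was the only gene of the 12 lists that passed in any comparison. Its call was lost with background subtracted, with the trend and robust options of eBayes, in a fit of the 2 groups alone, without KO LCA replicate 1 and without KO LCA replicate 3, where 0 probes passed. The part of these differences in the globin values was not tested.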

How the data were processed

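Linear intensity values of 12 arrays were deposited by the authors; the sorted values of the arrays differed by at most 0.564%, as after quantile normalization. How the arrays were scanned, background-corrected and normalized was not given in the sources used here. RNA was extracted with a Qiagen miREasy kit and labelled with an Ambion MessageAmp kit, per the labels' protocols. Probes were named from the platform annotation: 34885 had 1 symbol, 18 several and 10378 none. Here, log2 intensity of 32606 probes at or above the array median on at least 3 arrays was fitted with limma 3.58.1 in R 4.3.3 on 4 group means, without background subtraction; all 7 member probes passed this filter. P-values are two-sided with Benjamini-Hochberg adjustment. Correlations used 100000 permutations in scipy 1.17.1. Where 1 group had no array above the background level, any fold given is against that level, and is a bound where the groups did not overlap. Such a bound is of group means and does not take in the spread between arrays. Genes set to be named were all members, per list the 3 of smallest p among those above background on at least 3 arrays, and the 8 most like Hba-a1. Not all of the 3 per list are printed. None of them is for the neutrophil, monocyte and macrophage, endothelial, fibroblast and adipocyte lists. Srp19, S100a9, Ppbp, Hmox1 and any further list gene in the text were picked with their values in view. Members and the 12 gene lists were chosen with earlier results of these data known. The script was tested on simulated data. The number of arrays limits the precision, and no slide or scan batch is given.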

Additional observations from a re-analysis of the deposited data

How the results depend on the processing

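Over 20 member differences (4 genes by their brightest probe, in 5 comparisons), 352 values were computed under other settings. Of these, 335 kept their direction and their side of the threshold, 17 turned direction, and 0 passed the adjusted threshold. For Hba-a1 in KO RCA against WT RCA the settings other than leaving out an array gave 2.00 to 2.40, the highest with background subtracted. Leaving out the 2 arrays of lowest likeness was a choice made after seeing the data. It turned Slc4a1 and Alas2 in WT LCA against WT RCA to 0.049 and 0.045 and the Alas2 interaction to -0.64. Array weights turned Slc4a1 in WT LCA against WT RCA to 0.0010 and the Alas2 interaction to -0.28; the cause was not tested. Leaving out 1 array at a time gave -0.31 to 0.82 for Alas2 in KO RCA against WT RCA, -0.97 to 0.31 for Hbb-bt in KO LCA against KO RCA, -0.025 to 0.87 for Hba-a1 and -0.063 to 0.042 for Slc4a1 in WT LCA against WT RCA, and -0.59 to 0.54 for the Alas2 interaction. Of the correlations, 2 turned direction: Hba-a1 with Slc4a1 as deviations from the group means (-0.025) and Hba-a1 with Alas2 without 2 arrays (-0.22). Raising the background level to the 99th percentile of the receptor probes left the globins above it on 12 of 12 arrays, Slc4a1 on 2 and Alas2 on 5.

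The replicate numbers were not shown to pair LCA and RCA: deviations of same-numbered arrays correlated at -0.024 to 0.088 over 6 pairs, and 4 of 6 arrays correlated best with their own number. With the number as a fixed replicate block, Hba-a1 stood at -1.17 for KO LCA against KO RCA (adjusted p of 0.699 in limma), at 0.44 for WT LCA against WT RCA and at -1.61 for the interaction (adjusted p of 0.891 in limma). The block moved no count of called probes by over 1.5 times, also as a random block (correlation 0.066).

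Counts of called probes over all probes moved as well. For KO LCA against WT LCA 12 passed, against 4 with array weights, 1 without the filter on dim probes, 1 in a fit over genes, 0 with trend and robust, in the 2 groups alone or with background subtracted, and 0 to 26 without 1 array. Without the 2 arrays of lowest likeness 7 passed in KO RCA against WT RCA and 12 in WT LCA against WT RCA, where the count was 0 with all arrays. Array weights gave 1 in the WT pair. Without 1 array, 1 to 6 passed in KO RCA against WT RCA, 0 to 5 in KO LCA against KO RCA, 2 to 9 in WT LCA against WT RCA and 0 to 4 in the interaction. Signal near background limits Slc4a1 and Alas2, where folds are compressed.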
